A study of Homo sapiens with 9 samples.

Results

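The tight junction genes CLDN1, CLDN3, CLDN4, CLDN7, OCLN, TJP1, TJP3, F11R and CGN were followed by RNA sequencing in CAL27, an established line from a human tongue squamous cell carcinoma. These 9 genes were taken by name, and each matched 1 of the 78894 Ensembl identifiers in the data. All 9 passed the filter on low values (at least 1 TPM in at least 2 libraries), CLDN3 through knockout libraries alone, and belong to the 17100 genes tested. The groups were Control (library names WT) and the CRISPR-edited groups A2ko, A8ko and C9ko. All were grown in DMEM with fetal bovine serum and left untreated. The series' title speaks of an enhancer that drives tumour growth in head and neck squamous carcinoma. The labels name no edited sequence or allele, and do not say whether a knockout group is 1 clone or a pool, or how Control cells were handled, so no targeted gene could be checked. Both A2ko files held the same values for every identifier, as did both A8ko files. Each such pair was counted as 1 library, which left 3 Control, 1 A2ko, 1 A8ko and 2 C9ko libraries. For A2ko and A8ko, single libraries, differences come without a replicate check or a p-value. Nothing says that the libraries of a group came from separate cultures, so p-values measure the spread between these libraries only.

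Tight junctions seal the space between neighbouring epithelial cells near their apical side. Claudins form the strands, and the set of claudins that a cell makes sets which ions pass between cells. Occludin (OCLN) and junctional adhesion molecule A (JAM-A, the product of F11R) are further membrane proteins of the junction. The scaffold proteins ZO-1 and ZO-3 (TJP1 and TJP3) and cingulin (CGN) tie the membrane proteins to actin. In stratified squamous epithelium, claudin-1 is a major claudin and is needed for the barrier of the skin.

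Levels are given as TPM, the share of all transcripts after correction for gene length, scaled to the same sum in each library. How deeply each library was sequenced cannot be read from TPM and is unknown. Between 15556 and 15954 genes reached 1 TPM in the Control, A8ko and C9ko libraries, and 16716 in A2ko. Mitochondrial transcripts took 23.1% to 26.9% of the TPM in Control, 25.2% in A2ko, 20.6% in A8ko, with C9ko at 20.2% and 17.9%. The basal keratin KRT5 stood at 8716 to 9147 TPM in Control and 3082 to 5428 in the knockout libraries. Its partner KRT14 stood at 3549 to 4286 TPM in Control, 312.9 in A2ko, 866.9 in A8ko, with C9ko at 1283 and 1247. TP63, the gene of a master regulator of squamous epithelium, stood at 271.3 to 296.2 TPM in Control and 194.0 to 312.8 in the knockout libraries. Of 9 epithelial markers, 3 were called higher in C9ko (CDH1, KRT8 and KRT18), 5 lower (KRT5, KRT14, KRT19, DSP and JUP) and TP63 not called, against 22% higher and 7.42% lower of all 17100 genes. The E-cadherin gene CDH1 was at 100.3 to 106.3 TPM in Control and 138.3 to 177.0 in the knockout libraries. Most markers of other cell types were near 0, with the exceptions given here. PTPRC did not exceed 0.0232 TPM in any library, and COL3A1 and KDR were listed at 0 in all 7. Of 6 leukocyte, 6 fibroblast and 6 endothelial markers, 4, 3 and 5 stayed under 1 TPM in every library. The leukocyte sum was 28.4 to 32.8 TPM in Control, 37.9 in A2ko, 67.3 in A8ko, with C9ko at 14.8 and 14.9, nearly all of it CD68. The fibroblast sum was 10.8 to 12.2 TPM in Control, 17.7 in A2ko, 7.36 in A8ko, with C9ko at 11.02 and 11.8, most of it COL1A1. LUM measured 2.47 to 2.92 TPM in Control, 2.21 in A2ko, 0.440 in A8ko, with C9ko at 0.773 and 0.679. The endothelial sum was 3.63 to 4.66 TPM in Control, 13.2 in A2ko, 8.67 in A8ko, with C9ko at 22.3 and 30.3, nearly all of it CDH5. The defining PECAM1 did not exceed 0.295 TPM, and the part of these marker shifts in the results below was not tested.

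The sequences before the starts of 5 members are shown for reference, and whether they bear on the differences below was not tested. They are RefSeq sequences on GRCh38.p14, and 8 of the 9 members had an entry. Stretches are kept short where the annotation places transcribed sequence. The CLDN4, CLDN7 and OCLN sites lie inside those genes as GENCODE draws them, and the TJP1 site lies upstream of its gene. CLDN1 lies head to head with CLDN16, and 65 bases lie between the 2 genes as GENCODE places them. These are printed on the CLDN1 strand, with capitals at GC boxes (GGGCGG on either strand), chr3:190322476-190322540.
CLDN1: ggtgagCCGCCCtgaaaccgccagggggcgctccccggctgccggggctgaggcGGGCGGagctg
In the 250 bases before each start, 3 further motifs were searched on both strands. These were CACCTG (the E-box that SNAI and ZEB repressors bind), AACCNGTT (a grainyhead-like motif) and TGANTCA (which covers the AP-1 motif), none of which contains another. Among 35116 such windows of all genes, 17.5% held CACCTG, 1.49% AACCNGTT, 6.57% TGANTCA and 42.6% GGGCGG. CLDN7, which was lower in all knockouts, had 4 CACCTG matches before its start at 7262478 and 0 before its start at 7263213, and 0.122% of windows had at least 4. They are given on the CLDN7 strand (minus), with the motif in capitals, from chr17:7262637-7262662, chr17:7262598-7262623, chr17:7262483-7262508 and chr17:7262479-7262497, of which the last 2 overlap.
CLDN7 site 1: tcttcctcctCACCTGggcaaggagg
CLDN7 site 2: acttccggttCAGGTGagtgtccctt
CLDN7 site 3: tacatatactCAGGTGcgccccacct
CLDN7 site 4: aggtgcgcccCACCTGtcc
CLDN4, which was higher, had 2 TGANTCA matches on its plus strand, at chr7:73830746-73830770 and chr7:73830825-73830851. At least 2 matches occurred in 0.402% of windows. Among the 14 starts searched, only these of CLDN7 and CLDN4 had more than 1 match to any of the 3 motifs. The 2 shares were not adjusted for this choice.
CLDN4 site 1: ctgggctgTGATTCAgtgtctgtct
CLDN4 site 2: gactggatagTGACTCAgggacccggg
OCLN and TJP1, also higher in C9ko, held CACCTG as well. OCLN had 1 match before each of its 2 listed starts (chr5:69492504-69492529 and chr5:69492647-69492672, plus strand), and TJP1 had 1 before the most upstream of its starts (chr15:29969122-29969147, minus strand).
OCLN site 1: atccgagtttCAGGTGaattggtcac
OCLN site 2: taggacgcagCAGGTGggactcgcgg
TJP1 site: ggccggcgcgCAGGTGgcccggcctc
TJP3 also had 1 CACCTG match, before its start at 3721737, and CGN had the single AACCNGTT match among the 8 members. CACCTG thus stood before members that were higher and before one that was lower, and a match of letters says nothing about binding.

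In Control, the 9 genes covered more than 3 orders of size. CLDN1 (ENSG00000163347, chromosome 3, 190305701 to 190322475) led with 1085 ± 24.5 TPM (SD, n = 3), rank 105 among the 17100 genes. F11R (ENSG00000158769, chromosome 1, 160995211 to 161021348) followed with 122.0 ± 5.43 TPM (SD, n = 3). CLDN4 (ENSG00000189143, chromosome 7, 73799542 to 73832693) stood at 97.8 ± 4.12 TPM and CLDN7 (ENSG00000181885, chromosome 17, 7259903 to 7263983) at 88.8 ± 5.35 TPM (SD, n = 3 each). The Control ranges of CLDN4 and CLDN7 overlapped. The scaffold gene TJP1 (ENSG00000104067, chromosome 15, 29699367 to 29968865) was at 19.5 ± 0.866 TPM and CGN (ENSG00000143375, chromosome 1, 151510510 to 151538692) at 6.12 ± 0.403 TPM (SD, n = 3 each). TJP3 (ENSG00000105289, chromosome 19, 3708109 to 3750813) at 3.23 ± 0.264 TPM and OCLN (ENSG00000197822, chromosome 5, 69492292 to 69558104) at 2.93 ± 0.435 TPM (SD, n = 3 each) also had overlapping ranges. CLDN3 (ENSG00000165215, chromosome 7, 73768997 to 73770270) was lowest at 0.602 ± 0.257 TPM (SD, n = 3). It is a close paralog of CLDN4 from the same stretch of chromosome 7. How reads were divided between paralogs is not stated, so its low values are uncertain. Occludin transcripts, often used to mark tight junctions, were thus among the scarcest of the 9 in these cells.

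**Figure D1:**
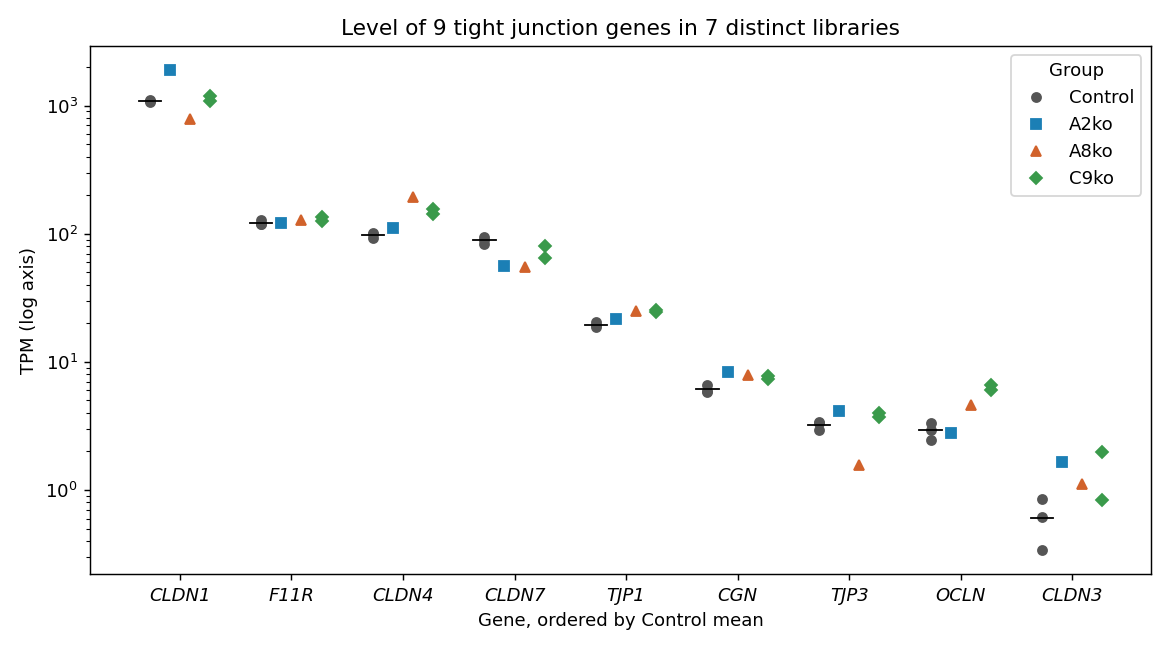
TPM on a log axis of the 9 genes in each of the 7 distinct libraries, ordered by the Control mean (black line), with groups by colour and shape. CLDN1 is the highest gene in all 7 libraries, with A2ko at 1894 and A8ko at 788.4 TPM around the Control mean of 1085, and CLDN3 is the lowest in all 7.

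The knockouts were compared with Control to ask which junction genes moved in the edited cells. Differences are on the log2(TPM + 1) scale, which understates those of weakly expressed genes. A general shift lies under them, since over all tested genes the medians for A2ko, A8ko and C9ko were 0.12, 0.09 and 0.11. Median-of-ratios scaling moved these medians to -0.03, 0.02 and 0.00, and values so scaled are given where they matter. All comparisons share the same Control libraries, and in bulk RNA fewer cells with a transcript and less of it per cell cannot be told apart. In C9ko, limma called 3 of the 9 genes at an adjusted p-value under 0.05, namely CLDN4, OCLN and TJP1, all higher. Over all tested genes 29.5% were called, 22% higher and 7.42% lower, so 3 of 9 was near the background. The 5038 calls were 3770 higher and 1268 lower, or 2702 higher and 2099 lower after median-of-ratios scaling, when 28.1% of genes and again 3 of the 9 (CLDN4 and OCLN higher, CLDN7 lower) were called. No member was at least 1 log2 unit from Control in C9ko, a size that 4.97% of tested genes reached with a call. With a pseudocount of 0.1 in place of 1, OCLN (1.10, limma adjusted p 0.00302) and CLDN3 (1.06, limma adjusted p 0.153) were past that size. The median difference of the 9 was 0.27 in C9ko, 0.17 in A2ko and 0.33 in A8ko, and 0.16 in C9ko after median-of-ratios scaling. These medians include CLDN3, which passed the filter through knockout libraries alone, so they are not read as a shift of the members.

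In A2ko and A8ko, 0 of the 9 lay outside the Control range by at least 1 log2 unit, against 5.07% and 4.73% of all tested genes. The background was 3.54% higher and 1.53% lower in A2ko, and 2.05% higher and 2.68% lower in A8ko. By the range alone, A2ko lay above all Control libraries for 6 of the 9 and below them for 1, where 50.4% and 26.3% of tested genes did so. A8ko lay above for 6 and below for 3, against 46.9% and 26.4%. Both sets of 6 include CLDN3, which passed the filter through knockout libraries alone, so its place in them is not read. The F11R value of A8ko exceeded the highest Control value by less than the spread between Control libraries. Both C9ko libraries lay above Control for 5 and below for 1, against 41.1% and 16.4%. In TPM as deposited, all 4 knockout libraries were above Control for CLDN4, TJP1 and CGN and below for CLDN7, whereas 17.0% and 4.61% of tested genes showed these patterns. With each knockout group as 1 value, limma called 0 of the 9, 5 had an unadjusted p under 0.05 (CLDN3, CLDN4, CLDN7, TJP1 and CGN, of which CLDN3 passed the filter through knockout libraries alone) against 16.0% of all tested genes at that p, and 1.03% of all tested genes were called (87 higher and 89 lower). Median-of-ratios scaling again gave 0 of the 9, with 0.778% called (37 higher and 96 lower). The difference over all knockouts was 0.58 for CLDN4 (SE 0.19, limma adjusted p 0.221) and -0.55 for CLDN7 (SE 0.12, limma adjusted p 0.108). Without A2ko, this comparison called CLDN4, OCLN and TJP1, all higher, and 11.7% of all tested genes (1382 higher and 611 lower).

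**Figure D2:**
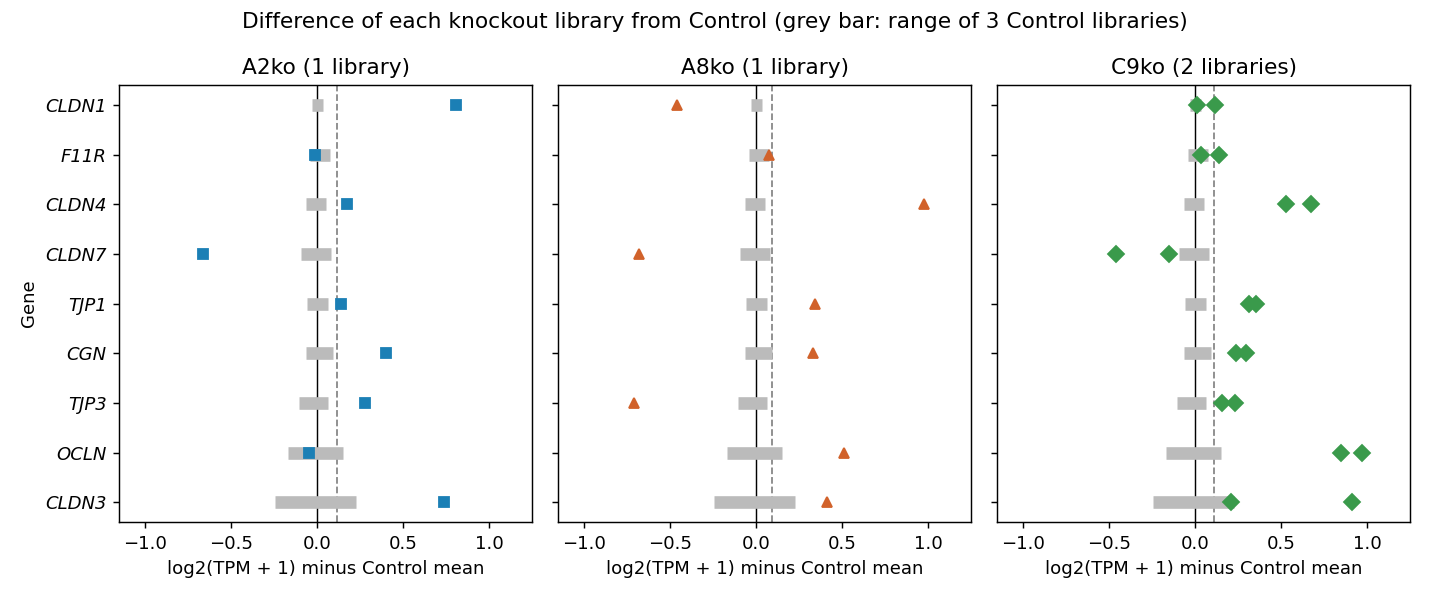
Difference of each knockout library from the Control mean in log2(TPM + 1), one panel per knockout, with the range of the 3 Control libraries as a grey bar and the median of all tested genes as a dashed line. CLDN7 lies left of the Control range and CLDN4, TJP1 and CGN lie right of it in every panel (after median-of-ratios scaling, CLDN4 is 0.01 and TJP1 -0.02 in A2ko), while CLDN1 lies right in A2ko (0.80) and left in A8ko (-0.46).

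CLDN1, the major claudin of these cells, differed in direction between knockouts. Its values were 1112, 1080 and 1063 TPM in Control, 1894 in A2ko, 788.4 in A8ko, with C9ko at 1093 and 1176. A2ko stood 1.75 times as high as the Control mean and A8ko at 0.727 of it, both far outside the narrow Control range, and C9ko overlapped Control. The C9ko difference of 0.06 (SE 0.07, limma adjusted p 0.537) did not pass, and it was -0.06 after median-of-ratios scaling. In A2ko and A8ko the scaled differences were 0.64 and -0.55. The head-to-head neighbour CLDN16, a claudin of kidney ion transport, was also highest in A2ko and lowest in A8ko. It measured 17.2, 15.1 and 14.7 TPM in Control, 25.9 in A2ko, 9.46 in A8ko, with C9ko at 15.1 and 16.1. The ratio of CLDN1 to CLDN16 was 64.7 to 72.5 in Control, 73.2 in A2ko, 83.4 in A8ko, with C9ko at 72.3 and 73.1, highest in A8ko. CLDN16 and this ratio were chosen after their values were seen. The 8 tested genes within 2 Mb of CLDN1 had median differences of 0.39 in A2ko, -0.05 in A8ko and 0.24 in C9ko.

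CLDN4, a claudin of simple and stratified epithelia, was higher in every knockout in TPM as deposited, but level with Control in A2ko (0.01) after median-of-ratios scaling. It measured 93.2, 98.9 and 101.2 TPM in Control, 110.3 in A2ko, 193.0 in A8ko, with C9ko at 156.1 and 141.4. The A8ko value was 1.97 times the Control mean, and the A2ko value stood just above the Control range. In C9ko CLDN4 rose by 0.60 log2 units (limma adjusted p 0.00122, SE 0.07), in 2 of 2 libraries. This call held in 13 of 13 alternative settings (adjusted p 0.000719 to 0.0202). After scaling by the median of ratios, the differences were 0.89 in A8ko and 0.48 in C9ko. The 36 tested genes within 2 Mb had medians of 0.26, 0.23 and 0.19 in A2ko, A8ko and C9ko.

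CLDN7, a basolateral claudin that binds EpCAM, was lower in every knockout. Its values were 93.6, 83.1 and 89.7 TPM in Control, 55.6 in A2ko, 54.9 in A8ko, with C9ko at 64.1 and 79.6. A2ko and A8ko were alike at 0.626 and 0.618 of the Control mean, and the second C9ko library lay only just under the Control range. The C9ko difference of -0.31 (SE 0.10, limma adjusted p 0.0660) did not pass. After scaling by the median of ratios it was -0.43 (limma adjusted p 0.0116). Without C9ko replicate 2 it was -0.46 (limma adjusted p 0.0220) and without C9ko replicate 1 it was -0.15 (limma adjusted p 0.305). With mitochondrial transcripts left out it was -0.41 (limma adjusted p 0.0160), so the call depends on these choices. ELP5 overlaps CLDN7 on the other strand at 39.2 to 52.4 TPM, and the sources do not say if counting used strand. The 94 tested neighbours of CLDN7 had medians of 0.14, 0.13 and 0.02 in A2ko, A8ko and C9ko.

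CLDN3 measured 0.339, 0.612 and 0.854 TPM in Control, 1.65 in A2ko, 1.11 in A8ko, with C9ko at 0.831 and 1.98. The 2 C9ko libraries differed more from each other than the Control libraries did, and the first fell within the Control range. The C9ko difference was 0.56 (SE 0.25, limma adjusted p 0.146), 0.91 without C9ko replicate 1 and 0.21 without C9ko replicate 2. Since CLDN3 entered the test through its knockout values, no call of it is read.

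Because TPM is corrected for length, the claudins could be summed. The 24 claudin genes measured totalled 1347 ± 29.1 TPM (Control, SD, n = 3), with A2ko at 2163, A8ko at 1114 and C9ko at 1392 and 1482. CLDN1 made up 80.6% ± 0.470 of this sum (Control, SD, n = 3), 87.6% in A2ko, 70.8% in A8ko, with C9ko at 78.5% and 79.3%. CLDN4 made up 7.27% ± 0.456 (Control, SD, n = 3), 5.10% in A2ko, 17.3% in A8ko, with C9ko at 11.2% and 9.54%. Ratios within a library do not depend on its scaling. The ratio of CLDN1 to CLDN4 was 11.9, 10.9 and 10.5 in Control, 17.2 in A2ko, 4.08 in A8ko, with C9ko at 6.998 and 8.32. A2ko thus lay above and A8ko and C9ko below every Control library. The ratio of CLDN4 to CLDN7 was 0.996, 1.19 and 1.13 in Control, 1.98 in A2ko, 3.52 in A8ko, with C9ko at 2.43 and 1.78. It was higher than Control in 4 of 4 knockout libraries. That had to be so, since CLDN4 lay above and CLDN7 below every Control library in all 4, and it is no further result. These ratios were chosen after the values were seen and were not tested.

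**Figure D3:**
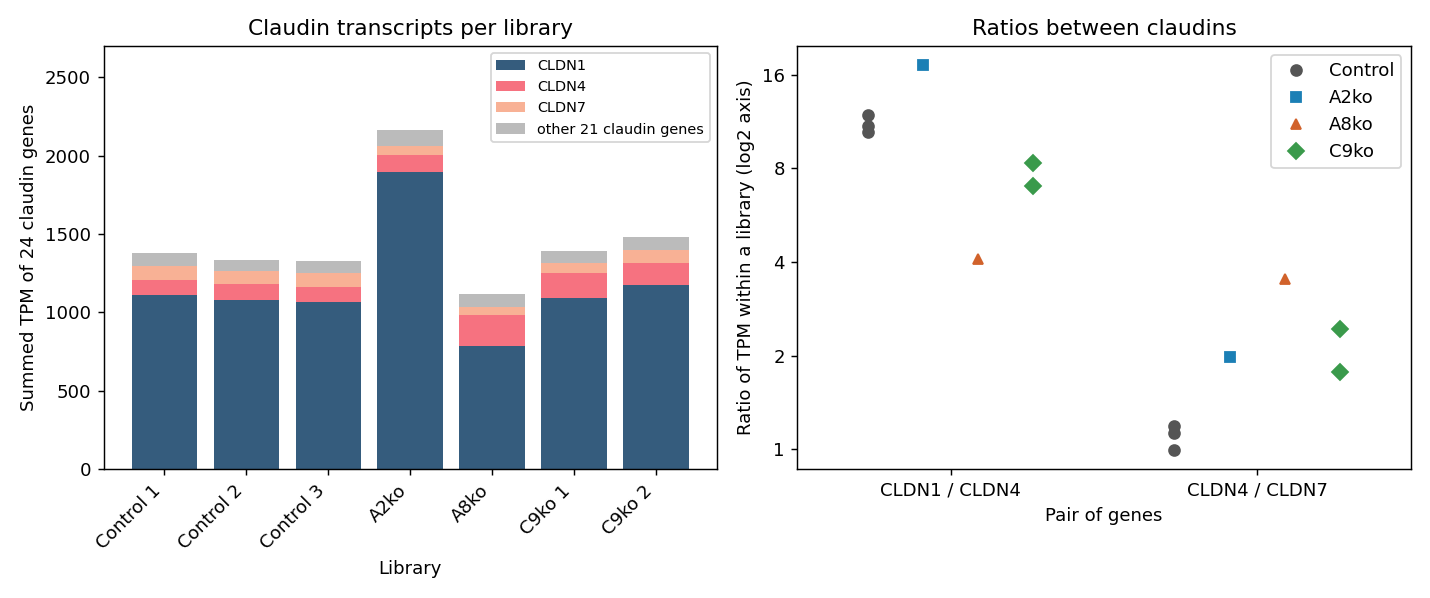
Left, summed TPM of 24 claudin genes per library, divided into CLDN1, CLDN4, CLDN7 and the other 21 genes. Right, ratios of TPM within each library on a log2 axis, where CLDN4 to CLDN7 is 0.996 to 1.19 in Control and 1.78 to 3.52 in the knockouts, and CLDN1 to CLDN4 is highest in A2ko (17.2) and lowest in A8ko (4.08).

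OCLN, the gene of the first membrane protein found in tight junctions, was higher in C9ko and A8ko. It measured 3.34, 2.48 and 2.97 TPM in Control, 2.79 in A2ko, 4.57 in A8ko, with C9ko at 6.66 and 6.05. A2ko fell within the Control range. In C9ko OCLN rose by 0.91 log2 units (limma adjusted p 0.00236, SE 0.13), the largest difference among the 9 in that group, in 2 of 2 libraries. The mean C9ko TPM was 2.17 times that of Control. This call held in 12 of 12 alternative settings (adjusted p 0.00147 to 0.0313). Of its 22 tested neighbours, 1 was called in C9ko, and their median was 0.11. The gene of its relative tricellulin, MARVELD2, was at 6.10 to 7.01 TPM in Control and 6.39 to 7.34 in the knockout libraries.

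F11R, which encodes the adhesion molecule JAM-A, differed from Control by less than 0.1 log2 units in each knockout in TPM as deposited, and by -0.18 in A2ko after median-of-ratios scaling. It measured 128.2, 118.1 and 119.6 TPM in Control, 120.6 in A2ko, 128.3 in A8ko, with C9ko at 125.0 and 134.3. A2ko and the first C9ko library fell within the Control range, while A8ko lay just above it and the second C9ko library above it. The C9ko difference was 0.09 (SE 0.07, limma adjusted p 0.372), or -0.03 after median-of-ratios scaling.

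Among the plaque genes, TJP1 was slightly higher in every knockout in TPM as deposited, but not in A2ko (-0.02) after median-of-ratios scaling. It measured 18.7, 20.4 and 19.4 TPM in Control, 21.5 in A2ko, 24.9 in A8ko, with C9ko at 24.4 and 25.2. C9ko TJP1 rose by 0.33 log2 units (limma adjusted p 0.0131, SE 0.07), in 2 of 2 libraries. The call was lost without C9ko replicate 2 (0.31, limma adjusted p 0.0741), after median-of-ratios scaling (0.21, limma adjusted p 0.0693) and with mitochondrial transcripts left out (0.24, limma adjusted p 0.0559). The pseudogene HMGN2P5 lies within TJP1 on the other strand, at 11.3 to 21.7 TPM. The 9 tested neighbours of TJP1 had medians of -0.0047 in A2ko, -0.16 in A8ko and -0.06 in C9ko, lower than TJP1 itself in each.

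TJP3, whose product ZO-3 is found in epithelia, measured 3.41, 2.92 and 3.35 TPM in Control, 4.11 in A2ko, 1.58 in A8ko, with C9ko at 3.69 and 3.96. A8ko stood at 0.489 of the Control mean and was the single library below Control. The C9ko difference was 0.19 (SE 0.11, limma adjusted p 0.235). CGN measured 6.57, 5.81 and 5.98 TPM in Control, 8.38 in A2ko, 7.93 in A8ko, with C9ko at 7.73 and 7.38. All 4 knockout libraries exceeded Control, but the C9ko difference of 0.27 (SE 0.09, limma adjusted p 0.0649) did not pass. After median-of-ratios scaling this CGN difference was 0.16 (limma adjusted p 0.207).

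For the 3 genes called in C9ko, the genes with the most similar differences over the 4 distinct knockout libraries were sought among 10421 genes outside the lists. The measure was the root mean square distance between log2 differences. PNPLA3 and ASB1 came nearest to CLDN4, at 0.0912 and 0.0913 log2 units. ARIH2 (0.0691) and RAB43 (0.0800) came nearest to OCLN, and PPM1G (0.0202) and FKBP14 (0.0216) to TJP1.

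Of 71 further junction genes in 6 lists, 50 were tested, and in C9ko 20 were called higher and 4 lower, against 22% and 7.42% of all tested genes. Their median difference was 0.19 in C9ko, 0.24 in A2ko and 0.14 in A8ko. After scaling by the median of ratios, the C9ko counts were 17 higher and 7 lower, on the scale where 28.1% of all tested genes were called.

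Among the 20 other claudin genes, 6 were tested. Against 22% and 7.42% of all tested genes, 2 of the 6 were called higher and 1 lower in C9ko. The most abundant was CLDN12, at 40.6 ± 3.58 TPM in Control (SD, n = 3) and 48.4 and 51.5 in C9ko (0.30, limma adjusted p 0.0427). After median-of-ratios scaling it was 0.18 (limma adjusted p 0.109). CLDN8, a claudin of sodium-reabsorbing epithelia (ENSG00000156284, chromosome 21), was near 0 in A8ko and C9ko. It measured 4.06, 3.29 and 2.69 TPM in Control, 8.16 in A2ko, and 0.133 and 0.0390 in C9ko, while A8ko listed it at 0. By limma, CLDN8 fell by 1.99 log2 units in C9ko (adjusted p 0.000298, SE 0.17), in 2 of 2 libraries. CLDN9 measured 3.71 to 4.80 TPM in Control, 4.80 in A2ko, 9.60 in A8ko, with C9ko at 4.98 and 5.08, and differed by 1.04 in A8ko, or 0.96 after median-of-ratios scaling. CLDN9 is similar in sequence to CLDN3 and CLDN4, so its share of reads is uncertain.

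Of the 9 other membrane proteins, 6 were tested. Against 22% and 7.42% of all tested genes, 3 of the 6 were called higher and 1 lower in C9ko. LSR, which recruits proteins to tricellular contacts, was the most abundant and rose by 0.64 log2 units (limma adjusted p 0.00267). Control stood at 91.0 ± 9.53 TPM (SD, n = 3) and C9ko at 143.7 and 139.7. The list of 22 other plaque and polarity genes also holds HEG1, which encodes a membrane protein. Of the 22, 21 were tested, with 7 higher (HEG1 among them) and 0 lower in C9ko, against the same 22% and 7.42%. MPDZ, a scaffold with many PDZ domains, was called with all knockouts together, at 1.09 log2 units (SE 0.14, limma adjusted p 0.0270). It measured 5.72, 4.39 and 5.65 TPM in Control, 13.6 in A2ko, 11.8 in A8ko, with C9ko at 10.2 and 12.8, with no overlap. Without Control replicate 1, 2 or 3 that comparison called 11, 5 and 5 of all tested genes, so the number of calls fell with any 1 Control library left out. Of these calls, 2, 0 and 0 were higher, so MPDZ was not called without Control replicate 2 or 3. HEG1 was at 23.8 ± 0.691 TPM (Control, SD, n = 3), with A2ko at 66.7, A8ko at 27.4 and C9ko at 36.7 and 39.0. PARD6A, a polarity protein gene, was at 1.62 ± 0.267 TPM (Control, SD, n = 3), with A2ko at 4.53, A8ko at 2.08 and C9ko at 2.88 and 2.78. YBX3, which encodes a factor held at junctions by ZO-1, was the most abundant of this list at 409.4 ± 35.9 TPM in Control (SD, n = 3). Its knockout values were 363.9 to 475.3 TPM.

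Among 6 genes for claudin partners and the membrane protease system, 5 were higher in C9ko, ST14, PRSS8, SPINT1 and SPINT2 among them, against 22% of all tested genes. After median-of-ratios scaling, 5 were again higher. ST14, the gene of matriptase, rose by 0.81 log2 units in C9ko (limma adjusted p 0.000194). EPCAM, whose product binds claudin-7, differed by 0.16 in C9ko (limma adjusted p 0.140).

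A list of 8 epithelial regulators held GRHL1, GRHL2, GRHL3, OVOL1, OVOL2, ELF3, ESRP1 and ESRP2, not all of which activate transcription. Against 22% and 7.42% of all tested genes, 3 of the 8 were called higher and 2 lower in C9ko. The ETS factor gene ELF3 was at 172.9 ± 9.94 TPM (Control, SD, n = 3), with A2ko at 210.2, A8ko at 54.9 and C9ko at 90.3 and 93.0, where it fell by 0.91 log2 units (limma adjusted p 0.000189). OVOL1 rose by 1.13 in C9ko (limma adjusted p 0.000330). Control stood at 5.95 ± 0.563 TPM (SD, n = 3) and C9ko at 14.8 and 13.6. GRHL3 was at 2.01 ± 0.208 TPM (Control, SD, n = 3), with A2ko at 0.108, A8ko at 0.288 and C9ko at 1.08 and 1.16. Of 6 repressors, 3 were tested and 0 were called in C9ko, against 29.5% of all tested genes. Among the 3, 1, TWIST1 (0.33), had an unadjusted limma p under 0.05. SNAI2 was the most abundant at 82.5 ± 3.96 TPM (Control, SD, n = 3), with A2ko at 65.0, A8ko at 96.7 and C9ko at 82.9 and 85.3. SNAI1 was at 1.11 to 2.10 TPM in Control and 4.11 in A2ko, while ZEB1, ZEB2 and TWIST2 stayed under 1 TPM in every library. After median-of-ratios scaling, CLDN8 (0.95), PARD6A (0.96) and SNAI1 (0.88) in A2ko and MPDZ (0.97) in A8ko were also under 1 log2 unit.

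**Figure D4:**
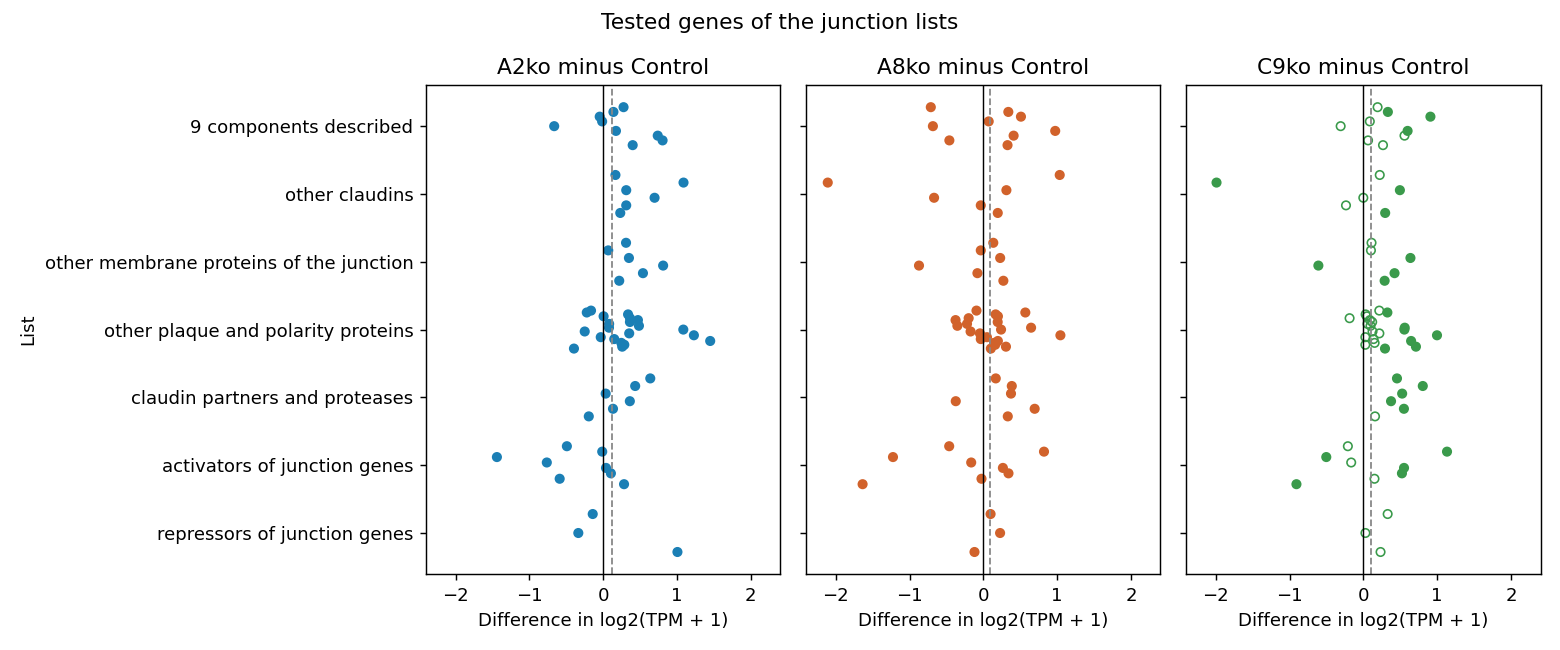
Difference from Control in log2(TPM + 1) of the tested genes of each list, one panel per knockout, with the median of all tested genes as a dashed line. The row named activators of junction genes holds 8 epithelial regulators, not all of which activate transcription. The plaque and polarity row includes HEG1, which encodes a membrane protein. In the C9ko panel filled points passed the limma test, and CLDN8 stands apart at -1.99 in C9ko and -2.11 in A8ko but at 1.09 in A2ko.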

How the data were processed

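PolyA RNA from CAL27 cells was made into libraries by the dUTP method, which marks strand, from 2 ug of total RNA, per the labels. The authors deposited TPM per Ensembl gene for 9 samples. The submitters' processing notes name the hg38 build. The aligner, quantification tool, annotation release and use of strand are not given in the sources used here. Files with identical values were counted as 1 library (the headers of both A2ko files, and of both A8ko files, name the same library). Gene symbols were looked up by Ensembl identifier, and positions were taken from GENCODE release 29 on GRCh38.

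Genes with at least 1 TPM in at least 2 of the 7 distinct libraries were analysed as log2(TPM + 1) with limma 3.58.1 in R 4.3.3 (eBayes with trend, Benjamini-Hochberg over all 17100 genes, calls under 0.05). C9ko was fitted with all 4 groups. All knockouts together were fitted as 3 group means against 3 Control libraries. A2ko and A8ko were counted outside the Control range by at least 1 log2 unit. The fits were tested on simulated data. The members and lists were chosen with earlier results of these data known. Named list genes were those past 1 log2 unit by these rules and the most abundant of each list, of which 1 is not reported here. Nearest patterns were sought among genes with a mean of at least 5 TPM. Other genes are named as examples chosen after their values were seen. Alternatives were another pseudocount, other filters and scalings, left-out libraries and other fits.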

Additional observations from a re-analysis of the deposited data

Results flagged for a closer look

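Among the 9 members and the list genes named by rule, 6 had knockouts on opposite sides of all Control libraries. Over all tested genes, A2ko lay above Control for 50.4% and below for 26.3%, and A8ko for 46.9% and 26.4%. C9ko did so for 41.1% and 16.4%. The share of all tested genes with knockouts on opposite sides was not counted, so the 6 are not read as unusual. The gap between knockouts was not tested, as A2ko and A8ko are single libraries, and each is read against the same Control. CLDN1 was above Control in A2ko and below it in A8ko, with 1.26 log2 units between them. TJP3 was above in A2ko and C9ko and below in A8ko, with a gap of 0.99 from A2ko to A8ko. CLDN8 was above in A2ko and below in A8ko and C9ko, with a gap of 3.20. ELF3 had the same sides as CLDN8, with a gap of 1.92. SNAI2 was below in A2ko and above in A8ko, with a gap of 0.57. YBX3 was below in A2ko and above in C9ko, with a gap of 0.38.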

How the results depend on the processing

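CLDN4 and OCLN kept their call in C9ko in every alternative that could be computed, and the count of called members there stayed within 1.5 times the main one. The members called did change. After median-of-ratios scaling, and with mitochondrial transcripts left out, TJP1 was no longer called and CLDN7 was called lower. OCLN, TJP3 and CLDN3 have no value where a mean of 5 TPM was required. A pseudocount of 0.1 put 1 member, CLDN3, past 1 log2 unit in A2ko, and the counts over all genes were then 1813 in A2ko and 1689 in A8ko. A mean of at least 5 TPM made them 380 and 412. In C9ko the count over all genes was 3301 to 4174 with 1 library left out. The replicate block gave 3248 genes and 2 members, CLDN4 and OCLN, with TJP1 at 0.33 (limma adjusted p 0.0890). The numbers share nothing else in the labels, and the differences between replicates 1 and 2 of Control and C9ko correlated across genes at -0.0372. With all knockouts together, 23 genes were called with no filter on low values, 5 to 11 without 1 Control library, 1993 without A2ko (with 3 members), 67 without C9ko, and 4361 with the knockout average inside the fit of all 4 groups (with 5 members). Directions near 0 turned. In C9ko, CLDN1 was -0.0595 and F11R -0.0349 after median-of-ratios scaling, and -0.0369 and -0.0126 with mitochondrial transcripts left out. With all knockouts together, F11R was -0.0763 and -0.0041 in these settings, CLDN1 was -0.20 without A2ko and TJP3 was 0.23 without A8ko. The causes were not tested. Depth is unknown, so what counting error adds for CLDN3, OCLN and TJP3 cannot be given.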

Other observations

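CLDN17 lies beside CLDN8 on chromosome 21 and was too low to be tested. Its TPM was 0.762, 0.695 and 0.791 for Control, 1.12 in A2ko, 0.0871 in A8ko, with C9ko at 0.0569 and 0.0829, above every Control library in A2ko and below in A8ko and C9ko, as for CLDN8. The 14 tested genes within 2 Mb of CLDN8 had median differences of 0.01 in A2ko, 0.23 in A8ko and 0.24 in C9ko. ILDR1, a tricellular junction gene, had a TPM of 1.89, 1.503 and 1.85 for Control, 3.81 in A2ko, 0.498 in A8ko, with C9ko at 0.901 and 0.695, where it fell by 0.61 log2 units (limma adjusted p 0.0214). These genes were chosen after their values were seen.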
